A study of Mus musculus with 6 samples.

Results

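Espn and Scrg1 are 2 of 33965 genes in the deposited table, and both had enough reads to be among the 19602 genes tested. They were picked by gene name after an earlier comparison of GB2 with PBS tumors had placed them among the lower genes with the smallest p-values. The difference between the groups is therefore described here without a test. In that ranking of lower genes Espn stood 3rd and Scrg1 4th. Gm49322, just above them, had a log2 fold change of -1.38, while Tubb3 and Ece2, just below, had -0.83 and -2.75.

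The data are bulk RNA-seq of 6 tumors under the skin of C57BL/6 mice, all labelled MC38, the name of a mouse colon carcinoma line. PBS was given to the mice of 3 tumors. The other 3 tumors came from mice treated with GB2, a prodrug that ties the STING agonist MSA-2 to artesunate through a disulfide bond. STING is the adaptor through which the DNA sensor cGAS turns on interferon genes. The labels give no dose, sampling time, sex, age or batch, and the study's methods describe its mice as female and 6 weeks old when bought. Each library is labelled as a separate tumor, but whether each came from its own mouse is not stated.

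Espn encodes espin, which ties actin filaments into the parallel bundles that stiffen microvilli and the stereocilia of hair cells in the inner ear. Loss of espin causes deafness in mice and people. Scrg1 encodes a small secreted protein rich in cysteine. It was first found as a gene raised in brains with scrapie, is also known as stimulator of chondrogenesis 1, and is studied in mesenchymal stem cells, where the surface enzyme BST1 acts as its receptor.

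The deposited table places Espn (ENSMUSG00000028943) on chromosome 4 from 152204788 to 152236828 on the minus strand and lists 13 transcripts for it. Scrg1 (ENSMUSG00000031610) lies on chromosome 8 from 57908957 to 57930619 on the plus strand, with 1 transcript. No other gene in the table overlaps either of them. In GENCODE M21, on GRCm38, Espn has 20 transcripts, of which 15 code for protein at lengths from 1142 to 4618 bases, so its gene-level value adds several transcript forms together. The single Scrg1 transcript there is 700 bases long. Its coding sequence is shown because the cysteine codons, in capitals, mark what the protein is known for. They make up 8 of 98 codons (8.16%).
Scrg1 coding sequence: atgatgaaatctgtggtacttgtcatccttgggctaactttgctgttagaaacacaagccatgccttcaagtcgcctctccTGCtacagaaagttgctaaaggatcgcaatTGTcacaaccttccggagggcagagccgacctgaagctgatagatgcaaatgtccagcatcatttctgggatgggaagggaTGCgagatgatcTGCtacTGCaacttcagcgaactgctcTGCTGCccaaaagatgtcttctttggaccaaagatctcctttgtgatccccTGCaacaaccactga

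RefSeq lists 3 separate start sites for Espn on GRCm38.p6. The first, chr4:152152390-152152639 on the minus strand, covers the 250 bases before the start. It is shown because it holds 2 GC boxes (GGGCGG on either strand, in capitals), against 0 before the second start and 1 before the third. Of 32851 promoters of the same length in that table, 32.7% hold at least 1 GC box. A match of letters shows no binding.
Espn promoter 1: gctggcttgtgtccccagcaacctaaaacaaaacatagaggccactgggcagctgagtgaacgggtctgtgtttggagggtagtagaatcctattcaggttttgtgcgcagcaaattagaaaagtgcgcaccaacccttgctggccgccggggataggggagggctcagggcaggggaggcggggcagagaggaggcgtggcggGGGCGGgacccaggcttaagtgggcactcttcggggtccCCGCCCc

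Before the members are described, the label was checked against marker genes, since it bears on any comparison with tumor cells. Several genes that define colon epithelium were near the floor in all 6 tumors. FPKM, read fragments scaled by transcript length and library total, ran from 0.0744 to 0.456 for Epcam, the epithelial adhesion molecule, and from 0.0 to 1.17 for the keratin Krt8. Cdx1 and Cdx2, the transcription factors of intestinal epithelium, were listed at 0 in most tumors and never passed 0.0283 and 0.0126 FPKM. Not every epithelial gene was low. The junction genes F11r (2.51 to 6.45 FPKM) and Jup (1.2 to 5.52 FPKM) lay within the range of Scrg1 or somewhat below, and the skin keratins Krt5 (7.72 FPKM in PBS, 16.0 in GB2 tumors) and Krt14 (7.84 and 21.1) were expressed. By contrast, genes of melanin synthesis were among the most abundant of the whole table. Tyrp1 lay between 734.0 and 1780.0 FPKM, Pmel, the scaffold of the melanosome, between 736.0 and 1840.0, and Dct between 690.0 and 1170.0. The transcription factors Mitf (58.4 to 97.6 FPKM) and Sox10 (93.0 to 241.0 FPKM) were also present in every tumor. Of a list of 15 such pigment genes, drawn up after these values were seen, all 15 were expressed, and the list took 1.31% to 2.07% of the counts of a tumor. The 14 epithelial genes took 0.00361% to 0.00746%. The pigment genes and the near absence of Epcam, Krt8, Cdx1 and Cdx2 go against the colon label in both groups alike. The study also describes a melanoma model, but no label ties these libraries to it, so the samples are called the tumors labelled MC38.

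**Figure D1:**
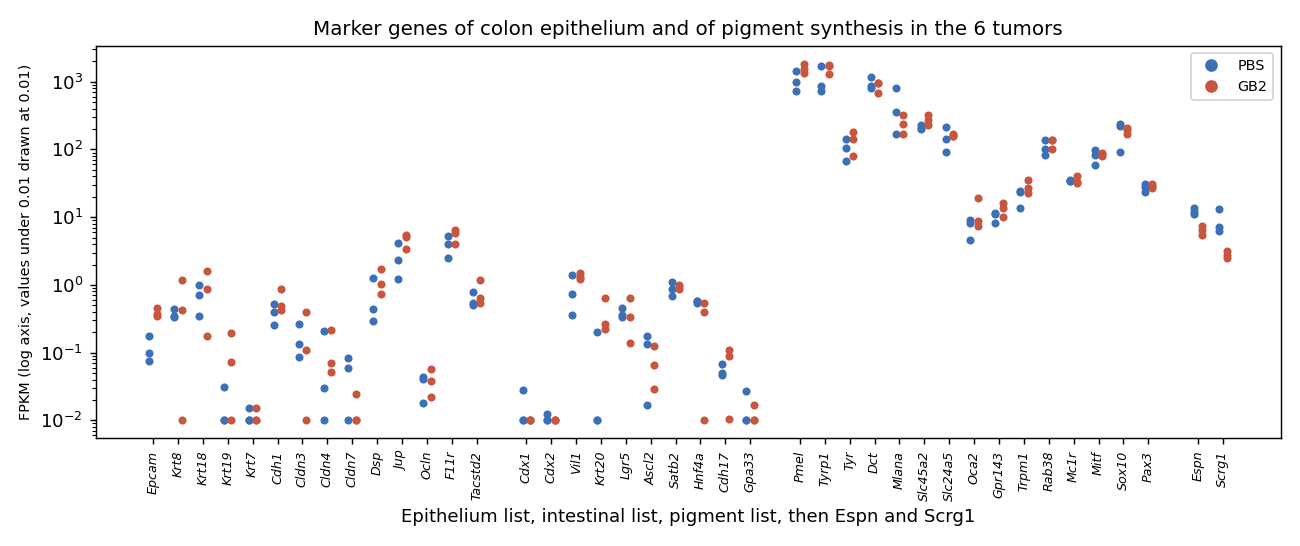
FPKM on a log axis for each gene of the epithelium, intestinal and pigment lists and for Espn and Scrg1; each point is 1 tumor, blue for PBS and red for GB2, and values under 0.01 are drawn at 0.01. Pigment genes such as Tyrp1 (734.0 to 1780.0 FPKM) lie far above epithelial genes such as Epcam (0.0744 to 0.456 FPKM) and F11r (2.51 to 6.45 FPKM) in both groups.

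Espn, the actin bundler, was lower in every GB2 tumor than in any PBS tumor. The PBS tumors had 108.7, 102.5 and 115.9 CPM (counts relative to the library size as scaled by TMM) and the GB2 tumors 44.73, 64.98 and 54.36 CPM. The PBS values sat close together, and the lowest of them was 1.58 times the highest GB2 value. The means were 109.0 ± 6.68 CPM in PBS and 54.7 ± 10.1 CPM in GB2 tumors (SD, n = 3 each), a 1.99-fold lower level with a log2 fold change of -1.0 (SE 0.19) in the edgeR fit. Among all genes tested, 743 (3.79%) had a log2 fold change as low or lower. The deposited counts behind these values ran from 3756 to 8191, with roughly 4 counts to a read pair by inference, so counting error came to about 2.21% to 3.26% of each value, less than the spread between tumors.

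Scrg1, the secreted cysteine-rich protein, was a rarer transcript and differed more. It measured 5.8, 4.598 and 9.648 CPM in the PBS tumors, against 2.227, 2.056 and 1.765 CPM in the GB2 tumors. The GB2 tumors were nearly level, while PBS tumor 3 stood above the other PBS tumors. Even so, the lowest PBS value was 2.06 times the highest GB2 value. The means were 6.68 ± 2.64 CPM and 2.02 ± 0.234 CPM (SD, n = 3 each), a 3.31-fold lower level with a log2 fold change of -1.73 (SE 0.35). Only 153 genes (0.781%) had one as low or lower. Without PBS tumor 3 the log2 fold change was -1.36. With about 37.5 to 170.0 read pairs per tumor, counting error was 7.66% to 16.3% of each value, and for the GB2 tumors (14.6% to 16.3%) it was as large as the 11.6% spread between them.

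**Figure D2:**
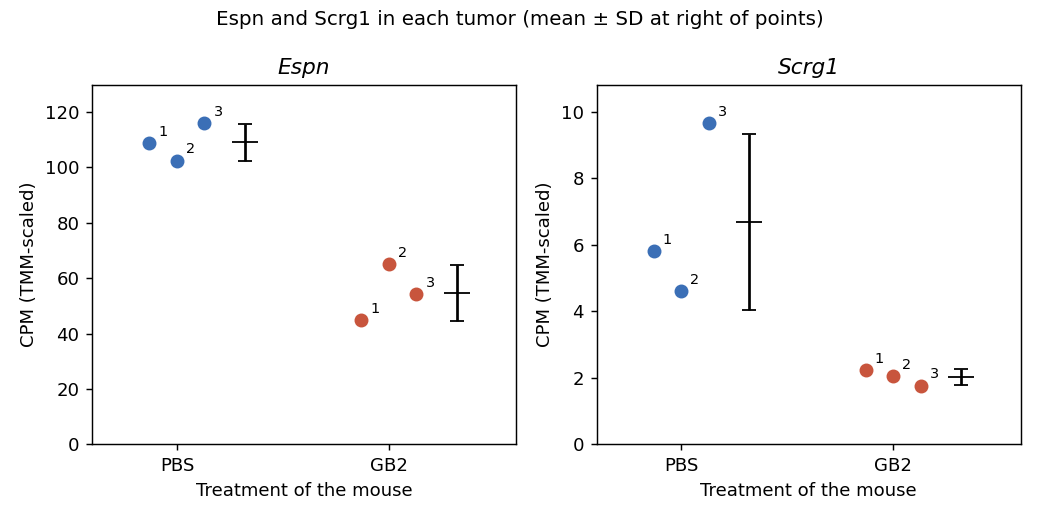
CPM of Espn and Scrg1 (y axes, from 0) by treatment; each point is 1 tumor with its number, and the bar beside it is the mean ± SD of 3 tumors. For both genes the groups do not overlap: the lowest PBS tumor has 102.5 CPM of Espn and 4.598 of Scrg1, the highest GB2 tumor 64.98 and 2.227.

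Groups that do not overlap were not rare in this table. Every GB2 tumor lay below every PBS tumor in 6.68% of all genes tested and above in 8.61%. No gene was called by edgeR's quasi-likelihood test with both a 2-fold change and an adjusted p under 0.05 (0.0% of 19602). At an unadjusted p under 0.05 there were 1360 genes (6.94%) in either direction, of which 180 (0.918%) were lower and 733 (3.74%) higher by at least 2-fold. When libraries were scaled to the epithelial list those numbers were 275 and 241. DESeq2 called 385 genes under the rule that gave 0 in edgeR, and limma on FPKM called 0. Since the members were picked on this contrast, nothing about them is read from these shares.

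On the length-scaled FPKM, which allows the genes to be compared with each other, Espn stood at 12.26 ± 1.22 in PBS and 6.46 ± 1.06 in GB2 tumors (SD, n = 3 each). Scrg1 stood at 8.93 ± 3.89 and 2.82 ± 0.33 FPKM. Espn was thus the more abundant of them in each tumor, by 1.59, 1.89 and 1.02 times in the PBS tumors and 1.7, 2.68 and 2.61 times in the GB2 tumors. These ratios overlapped between the groups, with PBS tumor 2 above GB2 tumor 1. Within the tested genes of a tumor, Espn ranked above 78.3% to 80.2% of genes in PBS and 61.3% to 69.1% in GB2 tumors. Scrg1 moved from above 65.2% to 79.9% of genes to above 48.8% to 52.0%. The counts per unit of FPKM, after division by library size, varied by no more than 2.36% for Espn and 2.54% for Scrg1 across tumors. Both deposited units therefore carry nearly the same differences between the groups.

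Stromal dilution, a fall in a tumor-cell transcript because more RNA comes from host cells, was examined next. Bulk RNA cannot tell fewer cells of a type from less RNA per cell. A stroma score, the mean of the fibroblast, pericyte and endothelial list scores over 28 genes (each the mean log2 CPM of a list), was 3.35, 3.62 and 3.33 in PBS tumors and 4.46, 4.2 and 4.58 in GB2 tumors. It was 0.98 higher in GB2 tumors, with no overlap (exact two-sided permutation p = 0.1, the smallest that 3 tumors against 3 allow). The fibroblast and endothelial parts were higher by 1.59 and 0.96, while the pericyte and smooth muscle part differed by 0.39 and overlapped (exact permutation p = 0.2). Over all genes tested, 51.7% had a log2 fold change below 0 and 48.3% above 0. Of the 28 stromal genes, 26 were above 0 and 0 were called. In 22 of them every GB2 tumor was above every PBS tumor, beside 8.61% of all genes tested. The collagen Col1a1 averaged 18.4 FPKM in PBS and 53.2 in GB2 tumors (log2 fold change 1.45, adjusted p 0.245 in edgeR). Together the 28 genes took 0.0671% to 0.0959% of counts in PBS and 0.156% to 0.217% in GB2 tumors. In PBS tumor 3 the largest part of this share was Mcam, of the pericyte list, with 21689 counts against 5775 for Col1a1. Which cells express Mcam was not measured, so the share need not be host RNA alone.

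A leukocyte score, made the same way from macrophage, neutrophil and lymphocyte lists of 29 genes, was also higher in GB2 tumors, by 1.26. Its values were -0.09, 0.12 and -1.51 in PBS and 0.38, 0.7 and 1.22 in GB2 tumors (exact two-sided permutation p = 0.1). Of the 24 genes tested, 19 were higher, and 16 had every GB2 tumor above every PBS tumor, beside 8.61% of all genes tested. The macrophage and neutrophil scores were higher by 1.91 and 1.93, whereas the lymphocyte score differed by -0.05 (exact permutation p = 1.0), and the 5 genes with lower means were all lymphocyte genes. The macrophage lysozyme Lyz2 had 22.5 FPKM in PBS and 102.0 in GB2 tumors (log2 fold change 2.11, adjusted p 0.166). Other host tissue lists also had higher means in GB2 tumors. The score difference was 0.82 for skeletal muscle (7 of 7 genes tested), 1.19 for adipocytes (6 of 6) and 0.88 for keratinocytes and skin (7 of 7), with exact permutation p-values of 0.1, 0.1 and 0.3. The adipocyte difference rested on PBS tumor 3 at -0.62, against 2.44 and 2.54 in the other PBS tumors and 2.58 to 2.72 in GB2 tumors. By the median of the genes the skeletal muscle groups overlapped, with PBS tumor 3 at 4.0972 and GB2 tumor 3 at 4.0675. The adipocyte groups did too, with PBS tumor 1 at 1.8083 and GB2 tumor 3 at 1.7128.

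Espn and Scrg1 ran opposite to these scores between the groups. Within groups of 3 the order was mixed. By CPM, PBS tumor 2, with the highest stroma and leukocyte scores of its group, had the least Espn and Scrg1. PBS tumor 3, with the lowest scores, had the most. The orders of Espn and of the stroma score are not firm. On FPKM, Espn was lowest in PBS tumor 1 (11.25, against 11.92 in PBS tumor 2). The stroma scores of PBS tumors 1 and 3 lay at 3.35 and 3.33, and on FPKM PBS tumor 1 had the lowest. By the median of the stromal genes PBS tumor 3 was highest (3.65) and PBS tumor 2 lowest (3.48). Among GB2 tumors, tumor 2 had the lowest stroma score and the most Espn, but tumor 1, not tumor 3, had the least Espn. GB2 tumor 3 had the highest of both scores and the least Scrg1. No correlation is given, because each group holds only 3 tumors and the groups form separate clusters.

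**Figure D3:**
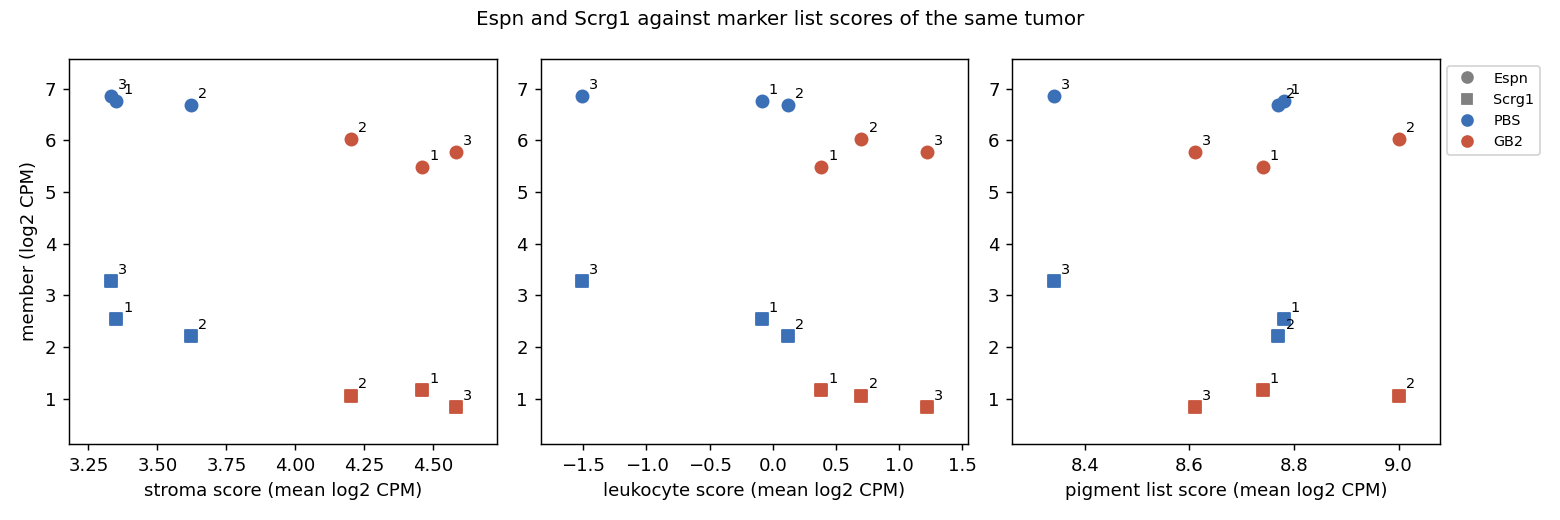
Log2 CPM of Espn (circles) and Scrg1 (squares) against the stroma, leukocyte and pigment list scores (mean log2 CPM) of the same tumor; blue points are PBS and red points GB2 tumors, numbered. The groups separate along the stroma axis (3.33 to 3.62 against 4.2 to 4.58) and overlap along the pigment axis (8.34 to 8.78 against 8.61 to 9.0).

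Other lists were then measured in the same libraries. Which cells express Espn and Scrg1 was not measured. The pigment list was not lower in GB2 tumors. Its score was 8.78, 8.77 and 8.34 in PBS and 8.74, 9.0 and 8.61 in GB2 tumors, a difference of 0.15 (exact two-sided permutation p = 0.6). Of its 15 genes, 11 had a higher and 4 a lower mean. The groups were apart in 0 of them, beside 6.68% of all genes lying wholly lower and 8.61% wholly higher in GB2 tumors. The median log2 fold change was 0.12 beside -0.02 over all genes. One gene, Mlana (log2 fold change -1.01, adjusted p 0.757), was as low as Espn, but this rested on PBS tumor 1 at 814.6 FPKM, and without that tumor it was -0.12. None (0) was as low as Scrg1. The proliferation score of 12 cell cycle genes was 7.63 ± 0.3 in PBS and 7.79 ± 0.11 in GB2 tumors (SD, n = 3 each; exact permutation p = 0.5), with 0 genes as low as either member.

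Relative to the pigment score of the same tumor, on the log2 scale, Espn lay at -2.02, -2.09 and -1.49 in PBS and -3.25, -2.98 and -2.84 in GB2 tumors. The groups did not overlap and differed by -1.16. Scrg1 lay at -6.24, -6.56 and -5.07 in PBS and -7.56, -7.94 and -7.77 in GB2 tumors, again apart, by -1.8. Against proliferation the differences were -1.17 for Espn and -1.81 for Scrg1. Against the epithelial list, the reference chosen first, they were -1.35 and -2.0 without overlap, but that list rests on very few reads. Each of these values is the member's own difference less that of the list, so it carries the difference on which the members were picked and is no separate evidence about dilution, whose part was not tested.

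The fit across all genes was repeated with each score as a covariate. With the leukocyte score beside the group, the log2 fold change was -0.95 (SE 0.3) for Espn and -0.95 (SE 0.38) for Scrg1. With the stroma score it was -0.28 (SE 0.63) and -0.3 (SE 1.28). Each of these scores by itself separates the groups, so stromal or leukocyte RNA and treatment cannot be told apart in these fits. Of these covariate fits, the group term is less well determined with the stroma score, as its standard errors show. Scaling the libraries to the pigment list gave -1.18 (SE 0.28) and -1.96 (SE 0.46), while the median of all genes moved to -0.17. Scaling to the epithelial list gave -1.35 (SE 0.69) and -2.03 (SE 0.77), with that median at -0.27. Leaving the stromal and immune genes out of the TMM factors left -0.99 and -1.73.

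**Figure D4:**
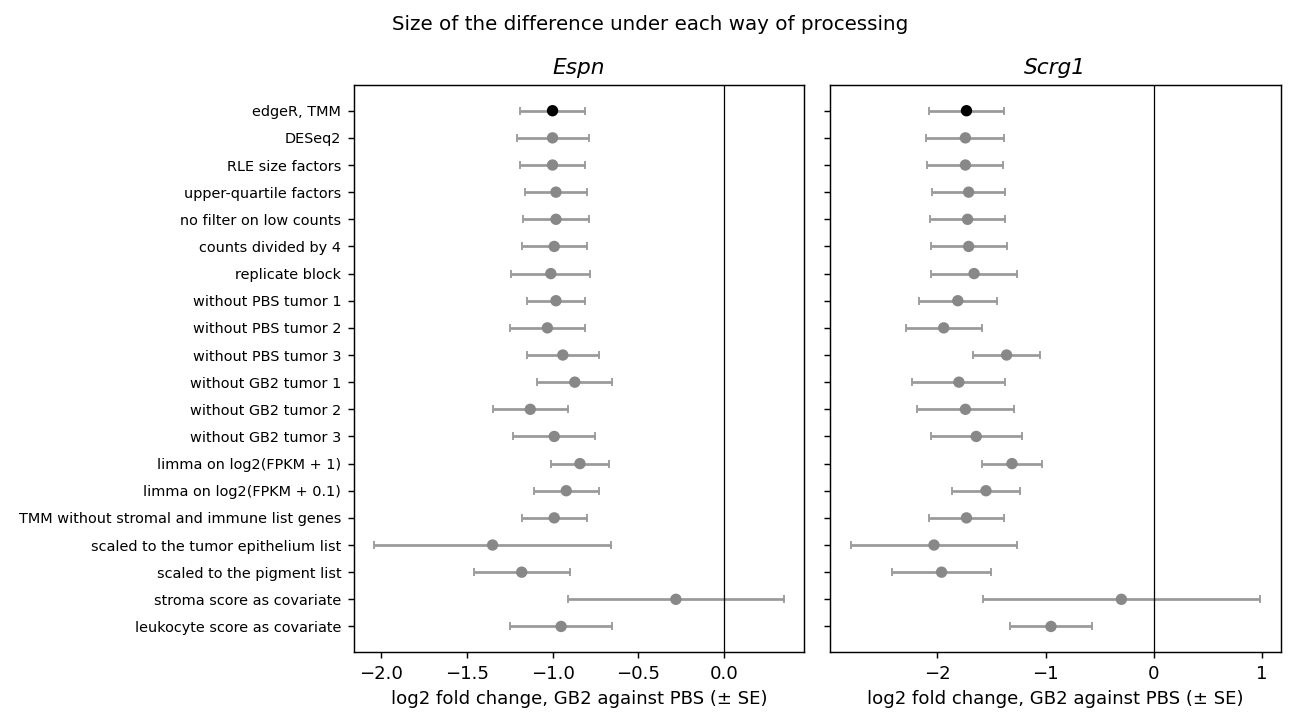
Log2 fold change of GB2 against PBS tumors (x axes, ± SE) for Espn and Scrg1 under edgeR with TMM (black) and 19 other ways of processing (grey). All values lie below 0, from -1.35 to -0.28 for Espn and from -2.03 to -0.3 for Scrg1, and only with the stroma score as covariate does the SE bar cross 0.

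Espin's paralog and other actin-binding genes were read next. Of 12 tested, 11 had a higher and 1 a lower mean in GB2 tumors, 0 were called, and the median log2 fold change was 0.26. The list score overlapped between groups, with a difference of 0.32 (exact two-sided permutation p = 0.5). Several of these values were near 0, such as 0.02 for Tpm1 and 0.08 for Pls3, so the number with higher means depends on the scaling. Espnl, the espin-like paralog, measured 7.373, 17.67 and 24.44 CPM in PBS and 21.04, 27.68 and 12.47 CPM in GB2 tumors (log2 fold change 0.31, SE 0.46). These groups overlapped, and the sign turned when libraries were scaled to the epithelial list or PBS tumor 1 was left out (-0.03). Fascin, Fscn1, another bundler, was at 0.08, and negative when scaled to the epithelial or pigment list, with the stroma score as covariate or without PBS tumor 1 (-0.06). Lcp1, the plastin of leukocytes, had the smallest p of the list, with every GB2 tumor higher (20.92 against 48.96 CPM, log2 fold change 1.23, adjusted p 0.207). Advillin, Avil, was the only lower one, at -1.81 (SE 1.18). It rested on PBS tumor 3 at 9.591 CPM against 0.2029 and 0.8089 in the other PBS tumors and 0.7935 to 1.376 in GB2 tumors, and was above 0 without that tumor.

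Transcripts of proteins that work with espin in stereocilia and microvilli went both ways. Of 20 listed, 14 were tested, 8 with a higher and 6 with a lower mean, 0 called, with a median log2 fold change of 0.09. Eps8, which caps and bundles actin at stereocilia tips, was abundant at 50.17 FPKM and differed by 0.06 (SE 0.36). The scaffold whirlin, Whrn, differed by -0.06 (SE 0.34). Both signs turned under other settings. Pfn2, a profilin that binds actin monomers, was the 1 gene of these 14 with every GB2 tumor below every PBS tumor, near the 6.68% of all genes that were: 44.88, 53.64 and 44.7 CPM in PBS against 33.73, 30.14 and 39.38 CPM in GB2 tumors (log2 fold change -0.47, SE 0.18, adjusted p 0.659 in edgeR). Myo3a, the motor that carries espin along stereocilia, had 0 counts in 4 tumors and was not tested. Vil1, villin of the intestinal brush border, had 0.832 ± 0.533 FPKM in PBS and 1.35 ± 0.125 in GB2 tumors (SD, n = 3 each; log2 fold change 0.65, adjusted p 0.779). The groups overlapped, and with single tumors left out the log2 fold change ran from 0.33 to 1.22.

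The Scrg1 receptor had a higher mean in GB2 tumors without passing the test. Bst1 measured 0.8624, 0.6528 and 0.3395 CPM in PBS and 2.465, 1.226 and 2.47 CPM in GB2 tumors. All GB2 tumors were higher, as in 8.61% of all genes tested (log2 fold change of Bst1 1.73, SE 0.49, adjusted p 0.393 in edgeR). With the stroma score as covariate the value was -0.33. Counts were 24 to 51 in PBS tumors, and BST1 is known from myeloid and stromal cells, whose scores were also higher. The part of those cells in it was not tested. Ptk2, the focal adhesion kinase studied downstream of BST1, differed by -0.13 (SE 0.18). Over the 12 genes of receptor and kinases, 10 means were higher and 2 lower, 0 were called and the median was 0.09. The list score on CPM was higher by 0.24 without overlap (exact two-sided permutation p = 0.1). This separation was lost on FPKM and by the median of the genes. PBS tumor 3 then lay above GB2 tumor 3, at 4.6676 against 4.5481 on log2(FPKM + 1) and 7.3969 against 7.0622 by the median.

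Cell types in which Scrg1 is known were looked at through their markers. All 10 mesenchymal stem cell genes tested had higher means in GB2 tumors, though Cd44 (0.04), Mcam (0.06) and Nes (0.06) were so close to 0 that their sign depends on the scaling. In 4 of the 10 the GB2 tumors were all above the PBS tumors, beside 8.61% of all genes, among them Thy1 (4.941 against 13.02 CPM, adjusted p 0.193), which fibroblasts also express. In 8 cartilage genes tested, 6 means were lower and 2 higher, with 0 called and a median of -0.64. Col2a1, the collagen of cartilage, had 6.696, 36.07 and 172.3 CPM in PBS and 21.75, 15.17 and 41.2 CPM in GB2 tumors, so PBS tumor 3, which had the most Scrg1, also had the most Col2a1. The link protein Hapln1 was highest in PBS tumor 3 at 178.6 CPM as well, but GB2 tumor 3, with the least Scrg1, followed at 166.1. Without PBS tumor 3 the fold changes of Col2a1 and Hapln1 were above 0. The other defining cartilage gene, Acan, was at or near 0 throughout. Genes raised in prion disease, the setting in which Scrg1 was first found, were split, with 7 of 12 higher and 5 lower. Ctss, a lysosomal protease of macrophages, had the smallest p among them (log2 fold change 1.8, adjusted p 0.193).

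The genes beside each member were read as well, to see whether either stood alone in its region. Around Espn, 21 genes start within 250 kb, and of the 17 tested 7 were higher and 10 lower, with a median log2 fold change of -0.03. Thap3 (-0.97), Acot7 (-0.48) and Rpl22 (-0.64) had every GB2 tumor below every PBS tumor, as did 6.68% of all genes, and did not pass the test (adjusted p 0.685, 0.757 and 0.757 in edgeR). Without PBS tumor 1 their values were -0.39, -0.18 and -0.15, and Acot7 was above 0 with the stroma score as covariate. Rpl22 has pseudogenes that can share its reads. Around Scrg1, 8 of 19 genes were tested, 2 higher and 6 lower, with a median of -0.37. Sap30, a subunit of the Sin3 histone deacetylase complex that starts 31.9 kb away on the other strand, measured 81.15, 34.03 and 32.59 CPM in PBS and 13.89, 16.71 and 29.6 CPM in GB2 tumors. Its log2 fold change of -1.3 (SE 0.44) did not pass the test (adjusted p 0.573) and was -0.72 without PBS tumor 1. The long noncoding RNA AW046200, at -0.86 (SE 0.35), and the unnamed one ENSMUSG00000120635, at -0.44 (SE 0.33), did not overlap between groups either. With single tumors left out, AW046200 ran from -1.07 to -0.56. PBS tumor 1 was the highest tumor for each of these 6 genes around the members, whereas PBS tumor 3 was highest for Espn and Scrg1.

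**Figure D5:**
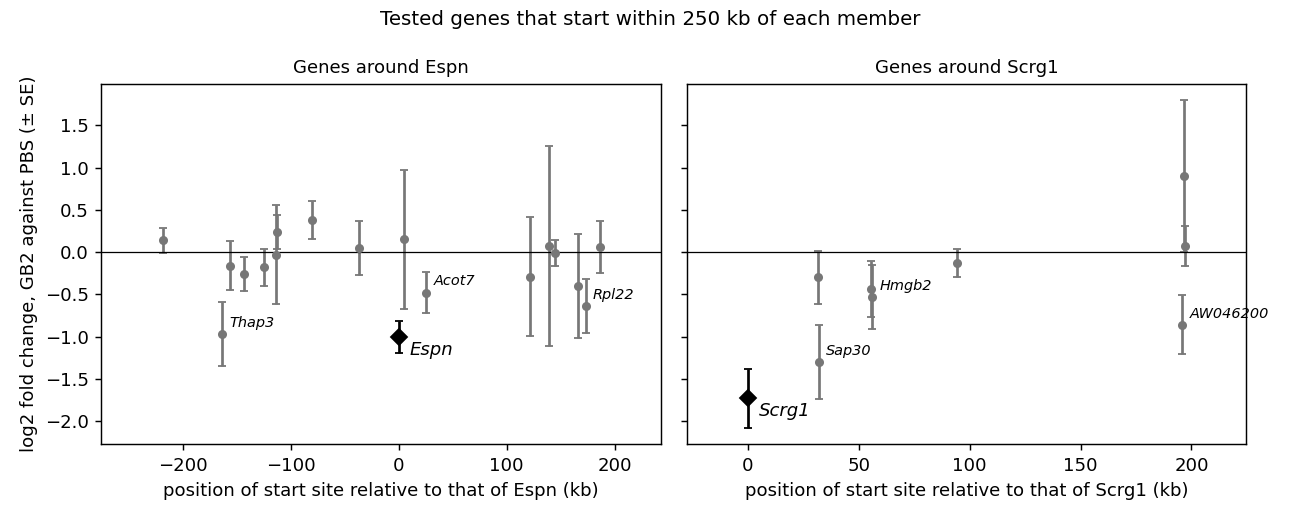
Log2 fold change of GB2 against PBS tumors (y axis, ± SE) for each tested gene within 250 kb of Espn or Scrg1, by the position of its start site in kb relative to that of the member (x axis); the diamond is the member. Espn at -1.0 lies among neighbours with a median of -0.03, and Scrg1 at -1.73 among neighbours with a median of -0.37, of which Sap30 is lowest at -1.3.

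Finally, the genes whose log2 CPM followed each member most closely were named by Pearson correlation over the 6 tumors, among 14245 genes with a mean of at least 1 CPM. For Espn these were Eif4ebp1 (r = 0.984), the repressor of cap-dependent translation, Meak7 (0.981), Vps37d (0.978), Gne (0.977), the enzyme that starts sialic acid synthesis, and Wbp1l (0.975). Rtl8b (0.982), Gne (0.973), the DNA glycosylase Neil1 (0.973), Kyat1 (0.966) and the adaptor Cd2ap (0.963) followed Scrg1. Espn and Scrg1 correlated with each other at 0.905, and 60 and 58 genes passed 0.9 with them. The tumors of both groups enter these values, so the difference between groups is part of each. The differences of these genes were much smaller than those of the members. Eif4ebp1 went from 94.12 ± 1.22 to 77.9 ± 4.93 CPM and Gne from 40.74 ± 1.28 to 35.31 ± 0.712 CPM (SD, n = 3 each). The largest among them, Vps37d, had a log2 fold change of -0.61 (SE 0.24).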

How the data were processed

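Bulk poly-A RNA-seq of 3 PBS and 3 GB2 tumors was read from 1 table of 33965 genes. The authors deposited estimated counts as whole numbers without scaling between libraries. The FPKM values the authors deposited are scaled by length and library total. The submitters' processing notes name cutadapt 1.9, HISAT2 2.2.1, StringTie 2.1.6, DESeq2, edgeR and mm10. Only 2.0% of 31999 shared gene IDs have the start and end of the GRCm38 annotation, so gene positions are those of the table, and its build was not settled. The strand setting of the counting is not given in the sources used here. Counts of 4 (7017 values) outnumber 3 (2984) and 5 (2017), and 8 (3462) outnumber 7 (1680) and 9 (1402), from which about 4 counts per read pair were inferred. Counts of 1 (5446) and 2 (4996) are also common, so read-pair numbers and counting errors are approximate.

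Totals ran from 64764405 to 83690056 counts, each GB2 library being larger than each PBS library. R 4.3.3 and edgeR 4.0.16 were used, with filterByExpr (minimum count 10, 19602 genes), TMM and the quasi-likelihood test of GB2 against PBS with Benjamini-Hochberg adjustment over all genes tested. The spread between tumors gave a biological coefficient of variation of 40.5%. Log2 CPM used a prior count of 2. Alternatives used DESeq2 1.42.0, limma 3.58.1 on log2(FPKM + 1) or log2(FPKM + 0.1), other scalings, covariates and left-out tumors. The scripts were tested on simulated data.

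Scores are the mean log2 CPM of a list, and groups were compared by exact permutation over tumors, two-sided. The members and the 22 lists were chosen with earlier results of these data known, and the pigment list was added after seeing the data. Named genes were the members, the 5 genes most like each, neighbours within 250 kb, in each pathway list up to 4 genes with the smallest p plus direct relatives or partners, and in marker lists up to 4 of the most abundant. Epcam, Krt8, Cdx1, Cdx2, Mitf, Sox10, Krt5, Krt14 and Acan were named after their values were seen, to check the labels or the cell type. P-values measure only the spread between these samples.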

Additional observations from a re-analysis of the deposited data

How the results depend on the processing

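Both members had a negative log2 fold change under all 19 alternatives. This is no separate support, because they were picked as lower in these same libraries. Their groups do not overlap, so leaving out a tumor could not turn the sign. With the stroma score as covariate the standard error was larger than the value, so that fit gives no direction. For Espn, the log2 fold change moved by more than the spread between tumors when libraries were scaled to the epithelial list (-1.35) or the stroma score was a covariate (-0.28). For Scrg1 it did so with the stroma (-0.3) or leukocyte score (-0.95) as covariate. The cause was not tested. Leaving out each tumor gave -1.13 to -0.87 for Espn and -1.94 to -1.36 for Scrg1, and -1.67 to -1.06 and -2.52 to -1.45 relative to the epithelial list. Tumors with the same number did not deviate together (deviations from the group means correlated at 0.0313, 0.154 and -0.245), and with the number as a replicate block the values were -1.01 and -1.66, and -1.35 and -2.0 relative to the epithelial list.

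Genes called numbered 0 in edgeR, 385 in DESeq2 and 15 when scaled to the epithelial list. The 180 lower genes became 338 with no filter, 34 and 115 in limma on log2(FPKM + 1) and log2(FPKM + 0.1), 275 and 364 when scaled to the epithelial and pigment lists, and 91 and 725 with the stroma and leukocyte covariates. Leaving out each tumor gave 123 to 548, with 548 without PBS tumor 3 and 310 without PBS tumor 2. The 733 higher genes became 95 in limma on log2(FPKM + 1), 241 when scaled to the epithelial list and 71 with the stroma covariate, and 503 to 950 with each tumor left out. The stroma score difference was 0.7 on log2(FPKM + 1) and 0.63 by the median of its genes. Scrg1 is limited by its few read pairs, and 3 tumors per group limit every value.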
